A study of Mus musculus with 8 samples.

Results

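The COPII coat genes were described in RNA-seq data of mouse rib chondrocytes with and without the *Mir140* gene. The coat genes taken were *Sar1a*, *Sar1b*, *Sec23a*, *Sec23b*, *Sec24a*, *Sec24b*, *Sec24c*, *Sec24d*, *Sec13* and *Sec31a*, 10 of the 52325 gene identifiers in each library, chosen by name as the mouse genes of the coat. All 10 were matched to 1 identifier each and all 10 passed the filter on low values described below. The wild-type group held 4 libraries and the *Mir140*-null group 4, from costal chondrocytes released with collagenase from ribs of 7-day-old mice. The null allele was made by CRISPR/Cas9 in mice of mixed C57BL/6 and CBA/ca origin and backcrossed to C57BL/6J. Heterozygous mice were then crossed repeatedly to give a wild-type and a null line, from which the chondrocytes came. Other differences between these lines cannot be told apart from genotype. Neither group carried any other allele or received a treatment that the labels or the methods name. The labels number the libraries of each group but do not say whether each came from 1 animal, so p-values measure the spread between these libraries, which may be partly technical.

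COPII is the protein coat that buds vesicles from the endoplasmic reticulum (ER) toward the Golgi. The small GTPase Sar1, loaded with GTP by the exchange factor Sec12 (the product of *Preb*), inserts into the ER membrane and recruits Sec23 and Sec24, the inner coat: Sec23 activates the Sar1 GTPase and Sec24 binds cargo. Sec13 and Sec31 then polymerize around it as the outer cage. Procollagen is longer than a standard COPII vesicle is wide and needs helpers such as TANGO1 (the product of *Mia3*) to leave the ER, and chondrocytes, which secrete large amounts of type II collagen, are known to depend on it. In humans, mutation of *SEC23A* causes cranio-lenticulo-sutural dysplasia, and mutation of *SEC24D* causes a skeletal disorder with fragile bones.

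Expression was given in TPM, the abundance of transcripts scaled by their length and to a sum of 1000000 in every library, so that levels can be compared between genes. TPM hold no read counts, so that the depth is unknown and counting error could not be given. Chondrocyte markers were detected in every library, with *Col2a1* at 47893 to 61630 TPM in wild-type libraries and 34418 to 48361 TPM in null ones, although *Matn1*, which encodes matrilin-1, was low at 10.02 to 48.8 TPM. Between the genotypes these markers did not all go the same way, as given with *Col2a1* below. *Mir140* itself was listed at 0 in 7 libraries, and its only value above 0 (8.86 TPM) was found in null replicate 2, so that it does not check the labels. *Mir140*-null replicates 1 and 2 stood apart from the other 6 libraries in the sum of 8 fibroblast and perichondrium markers, at 1015 and 1201 TPM against 5851 and 4469 TPM in *Mir140*-null replicates 3 and 4 and 3670 to 6595 TPM in wild-type libraries. *Col1a1*, the main collagen of bone and fibrous tissue, was at 47.8 and 50.1 TPM in those 2 libraries and at 793 to 1544 TPM in the other 6. In those 2 libraries 6 of the 8 markers (*Col1a1*, *Col1a2*, *Col3a1*, *Dcn*, *Postn* and *Thy1*) were below all other libraries, whereas *Lum* was at 131 and 142 TPM against 132 to 178 TPM in wild-type. *Pdgfra* went the other way, at 31.5 to 36.5 TPM in all 4 null libraries against 11.8 to 19.8 TPM in wild-type. In null replicates 3 and 4, 4 of the 8 markers were inside the wild-type range, while *Pdgfra* and *Lum* (219 and 207 TPM) were above it, *Dcn* (361 and 424 TPM against 449 to 508 TPM) below it, and *Thy1* above it in replicate 3 only. Null replicates 1 and 2 also had the lowest sums of osteoblast markers, at 4.15 and 3.10 TPM against 10.3 to 18.1 TPM in the other libraries. The same held for myeloid (19.2 and 18.3 TPM), endothelial (3.41 and 4.85 TPM) and erythroid markers (432 and 256 TPM), but not for skeletal muscle. These 2 libraries also had the fewest genes at 0.5 TPM or more, 15800 and 16056 against 16991 to 17950. The mitochondrial genome gave 4.06% to 6.98% of the TPM of wild-type libraries and 8.41% to 10.1% of those of null libraries. Results for the coat are therefore also given for each pair of *Mir140*-null libraries. In such bulk samples, fewer cells of a type and less RNA per cell cannot be told apart.

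In wild-type chondrocytes the coat was led by *Sar1a*, at 292 ± 7.66 TPM (mean ± SD, n = 4), above 97.8% of the 13241 protein-coding genes detected. *Sec24d* followed at 121 ± 23.0 TPM and *Sec31a* at 105 ± 9.16 TPM, and these neighbours overlapped between libraries. *Sec13* at 61.5 ± 2.86 TPM and *Sec23a* at 42.3 ± 2.73 TPM each stood clear of the genes next to them. *Sec24c* (32.8 ± 2.39 TPM), *Sec23b* (32.5 ± 4.33 TPM), *Sec24a* (23.99 ± 2.58 TPM), *Sec24b* (19.0 ± 3.01 TPM) and *Sar1b* (15.6 ± 1.65 TPM) formed a series in which each overlapped with the next. Even *Sar1b*, the lowest, was above 68.6% of the protein-coding genes. In *Mir140*-null chondrocytes the first 5 places were unchanged and *Sec24d* no longer overlapped with *Sec31a*, at 170 ± 18.9 TPM against 112 ± 4.32 TPM. *Sec23b* overlapped there with *Sec23a*, and *Sec24a* was below *Sec24b* in the means although their libraries overlapped.

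The paralogs were unequally used, as shown in the plot of paralog shares. *Sar1a* made up 94.9% ± 0.518 (SD, n = 4) of the TPM of the pair *Sar1a* and *Sar1b* in wild-type and 93.7% ± 0.963 in *Mir140*-null libraries. *Sec24d* made up 61.1% ± 4.59 of the 4 Sec24 genes in wild-type and 64.6% ± 1.41 in *Mir140*-null libraries. *Sec23a* made up 56.7% ± 2.41 of the pair *Sec23a* and *Sec23b* in wild-type libraries. In *Mir140*-null libraries that share was 45.4% and 49.8% in replicates 1 and 2 and 54.7% and 57.3% in replicates 3 and 4, so that *Sec23b* exceeded *Sec23a* in 2 of the 8 libraries. All of these shares overlapped between the genotypes. The ratio of the inner coat (Sec23 and Sec24 genes) to the outer coat (*Sec13* and *Sec31a*) was 1.64 ± 0.214 in wild-type and 2.03 ± 0.198 in *Mir140*-null libraries and overlapped as well.

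**Figure D1:**
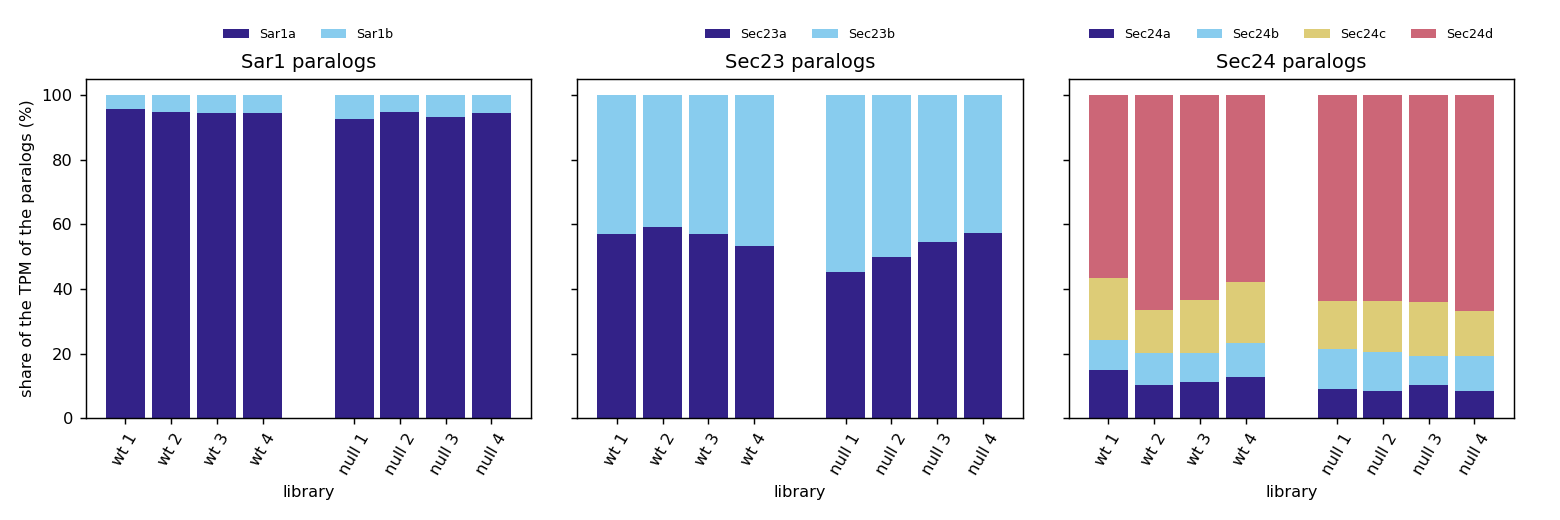
Share of each paralog in the summed TPM of its family (vertical axis, %) in each of the 8 libraries (horizontal axis; wt, wild-type; null, *Mir140*-null), for Sar1, Sec23 and Sec24. *Sar1a* takes over 92.7% of its pair in every library, *Sec24d* 56.7% to 66.7% of its family, and *Sec23b* is the larger part of its pair in null libraries 1 and 2.

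The 3p arm of miR-140 yields isomiRs with different seeds (bases 2 to 8, in capitals), and both are printed here because their matches were searched in the 3'UTRs of the coat genes. Sequences are those of the mouse hairpin in RefSeq (GRCm38.p6, plus strand, chr8:107551288-107551308 and chr8:107551289-107551309), each cut to 21 bases. The 5p arm was not searched.
miR-140-3p.2: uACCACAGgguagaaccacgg
miR-140-3p.1: aCCACAGGguagaaccacgga
In the longest 3'UTR of each coat gene in GENCODE M21 (GRCm38), a match of 7 or 8 bases was found in 3 of the 10 genes, 1 each. The windows of 27 bases below hold the match in capitals and are read on the minus strand, which is the coding strand of these genes.
Sec24b, 8mer for miR-140-3p.2, chr3:129983523-129983549: ggcagcggcaCTGTGGTActcgcttgt
Sec24a, 7mer-m8 for miR-140-3p.2, chr11:51694305-51694331: tccatttctgCTGTGGTtgatagagtt
Sec23a, 7mer-A1 for miR-140-3p.1, chr12:58959914-58959940: tttcatttatCTGTGGAaacaacagag
The 8mer and the 7mer-m8 pair with the whole seed, whereas the 7mer-A1 pairs with bases 2 to 7 and has an A opposite the first base, as the 8mer also has. A 7mer-m8 or 8mer for miR-140-3p.2 was present in 2 of the 10 coat genes and in 19.0% of the 12988 tested genes with a 3'UTR, and 1 for miR-140-3p.1 in 0 of the 10 and in 20.2% of the tested genes. With 7mer-A1 matches counted, the shares of all tested genes were 24.9% and 30.3%. The 3'UTRs of the coat genes were shorter, with a median of 870.5 bases against 1159 bases. *Sar1a* is on the study's list of predicted miR-140-3p.2 targets, which rests on TargetScanHuman and thus on human 3'UTRs, and no 7-base match was found in its mouse 3'UTR of 1896 bases. A match is a description of the letters and not evidence of binding.

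The promoters were searched because ER stress factors and the CREB3 family, described below, are known to act on COPII genes through short motifs. Of 4 motifs searched on both strands in the 300 bases from 250 before to 50 after the RefSeq gene start (GRCm38.p6), TGACGTGG, the core of the element bound by ATF6 and XBP1, was in 2 of the 10 coat genes and in 0.714% of the promoters of 27025 genes. That share covers all promoters, also those of genes not tested here. The motif was not particular to this coat, since it was also found among the partners described below. There it was in promoters of exit site, tethering and COPI coat genes, such as *Arf1*. The windows below have the motif in capitals and are read on the coding strand, which is plus for *Sec24d* and minus for *Sec23a*.
Sec24d, motif 26 bases before the start, chr3:123267459-123267488: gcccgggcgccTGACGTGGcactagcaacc
Sec23a, motif 6 bases after the start, chr12:59011993-59012022: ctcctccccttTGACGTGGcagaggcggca
The cAMP response element TGACGTCA was in none of the 10 coat promoters and in 2.03% of all promoters, and the ER stress element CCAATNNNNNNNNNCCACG in none of the 10 and in 0.137%. The shorter core TGACG, which is contained in both 8-base motifs, was in 6 of the 10 and in 23.0% of all promoters. *Sec24a* and *Sar1b* are neighbours on chromosome 11 that are transcribed away from each other, and their annotated starts lie 53 bases apart in GENCODE M21. The TGACG matches counted for *Sec24a* (chr11:51757003-51757031 and chr11:51757054-51757082) lie before a RefSeq start inside its GENCODE gene (chr11:51692264-51763634). They are thus not at the start next to *Sar1b*.

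The genotypes were compared with limma on log2(TPM + 1) over the 17177 genes that reached 0.5 TPM in 4 or more libraries, two-sided, with Benjamini-Hochberg adjustment over all of these genes. Log2 fold changes are *Mir140*-null minus wild-type and understate the change of genes at a few TPM. Of the 10 coat genes, 5 were up-regulated in *Mir140*-null chondrocytes at an adjusted p under 0.05 and 0 were down-regulated, where 10.5% of all tested genes were up-regulated and 6.40% down-regulated. At an unadjusted p under 0.05, 7 were higher and 0 lower, beside 19.0% and 14.9% of all tested genes. The *Mir140*-null libraries were all above the wild-type libraries for 7 of the 10, beside 15.7% of tested genes, and below them for 0, beside 10.2%. The median log2 fold change of the 10 was 0.34, against -0.01 for all tested genes and 0.11 for the 9668 genes with a mean of at least 5 TPM, of which 17.0% were up-regulated. Summed over the 10 genes, the coat took 730 to 758 TPM in the wild-type group and 879 to 935 TPM in the null group, a ratio of the means of 1.23. These calls lie close to the threshold: none of the 10 passed it after median-ratio scaling (lowest adjusted p 0.0587, with 7.96% of all tested genes up-regulated) or quantile normalization (0.0713, with 8.77%), and 0 to 3 passed it with 1 library left out, where 4.54% to 9.04% of all tested genes were up-regulated.

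**Figure D2:**
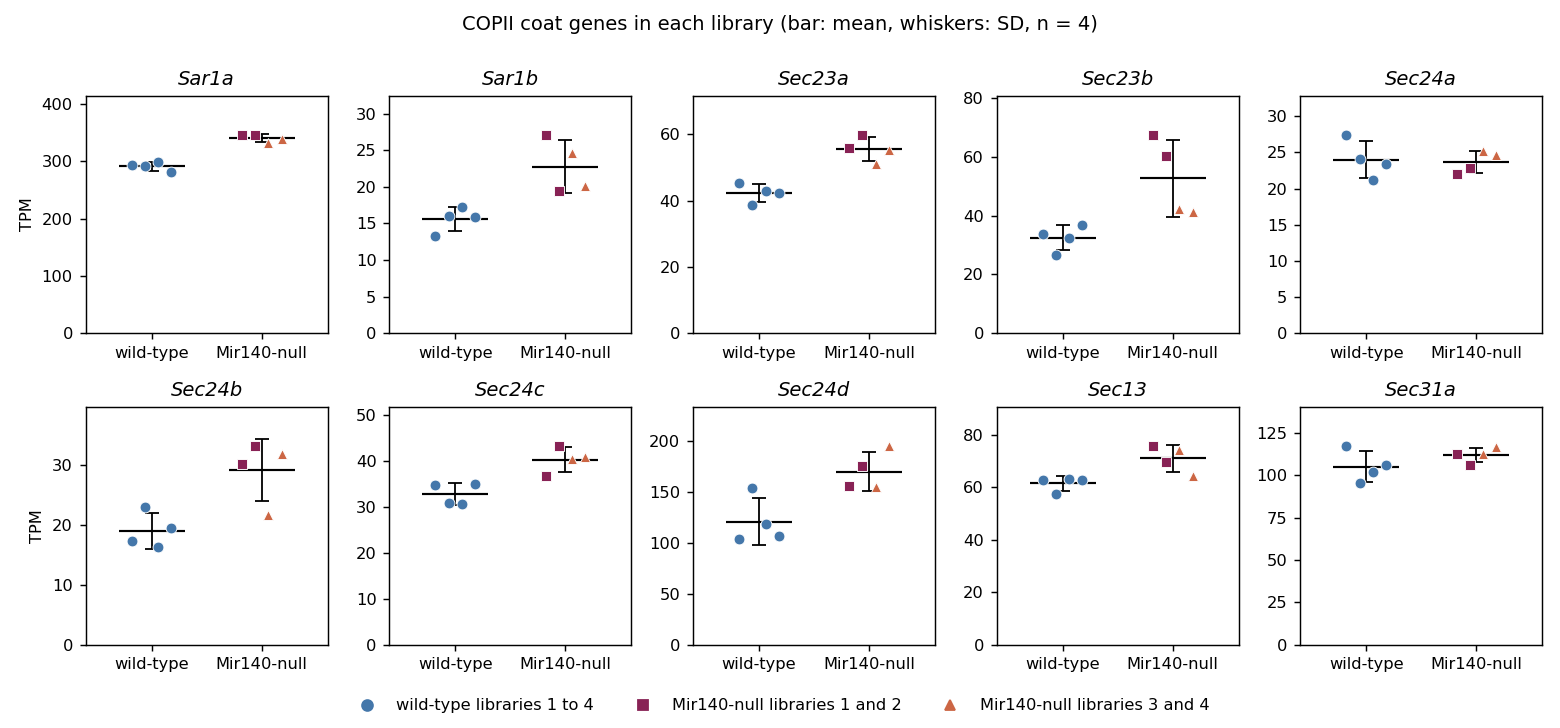
TPM (vertical axes, from 0) of the 10 coat genes in each library by genotype (horizontal axes). Bars are means and whiskers SD of 4 libraries, and squares mark *Mir140*-null libraries 1 and 2. The null libraries all lie above the wild-type libraries for 7 genes and overlap with them for *Sec24a*, *Sec24b* and *Sec31a*.

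The Sar1 GTPases start coat assembly. *Sar1a* (chr10:61680299-61693297, plus strand) was at 295, 292, 299 and 281 TPM in wild-type replicates 1 to 4 and at 346, 346, 332 and 340 TPM in the *Mir140*-null replicates. All 4 null libraries were above all 4 wild-type libraries, with the smallest spread of the coat genes relative to the mean. Its log2 fold change of 0.23 (SE 0.07) did not pass the threshold (adjusted p = 0.0614, limma), with a 95% interval of 0.06 to 0.39. *Sar1b* (chr11:51763687-51791925, plus strand), the paralog required for the export of chylomicrons in the intestine, was at 13.3, 16.0, 17.2 and 15.9 TPM in the wild-type libraries, against 27.1, 19.4, 24.6 and 20.1 TPM in the null libraries. The groups did not overlap and *Sar1b* was up-regulated, by a log2 fold change of 0.51 (SE 0.14, adjusted p = 0.0442, limma).

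Of the inner coat, both Sec23 genes were up-regulated. *Sec23a* (chr12:58958383-59012017, minus strand) was at 45.3, 38.7, 42.9 and 42.3 TPM in the wild-type libraries, against 55.9, 59.7, 51.0 and 55.3 TPM in the null libraries. Its groups did not overlap, and its log2 fold change was 0.38 (SE 0.09, adjusted p = 0.0299, limma), the lowest adjusted p of the 10. *Sec23b* (chr2:144556229-144590749, plus strand), which is mutated in a congenital anaemia, was at 33.9, 26.7, 32.5 and 37.0 TPM in the wild-type libraries, against 67.4, 60.2, 42.3 and 41.2 TPM in the null libraries. All null libraries were higher, but by unequal amounts: replicates 1 and 2, those with the low sum of fibroblast markers, were on average 1.96 times the wild-type mean and replicates 3 and 4 were 1.28 times. The log2 fold change was 0.66 (SE 0.19, adjusted p = 0.0469, limma), and the part of these markers in it was not tested.

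The 4 Sec24 genes, which select cargo, did not move as a block. *Sec24d* (chr3:123267455-123365641, plus strand), the most abundant of them, was at 104, 154, 118 and 107 TPM in the wild-type libraries, against 156, 175, 155 and 195 TPM in the null libraries. Wild-type replicate 2 nearly reached null replicates 1 and 3, and the log2 fold change of 0.50 (SE 0.15) was just past the threshold (adjusted p = 0.0498, limma). *Sec24b* (chr3:129982759-130061553, minus strand), whose 3'UTR holds the 8mer printed above, was at 17.2, 23.1, 16.3 and 19.4 TPM in the wild-type libraries, against 30.1, 33.1, 21.7 and 31.9 TPM in the null libraries. Null replicate 3 lay below wild-type replicate 2, so that the groups overlapped, and *Sec24b* was up-regulated with a log2 fold change of 0.59 (SE 0.17, adjusted p = 0.0473, limma).

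*Sec24c* (chr14:20674308-20694852, plus strand) was at 34.8, 30.7, 30.7 and 34.9 TPM in the wild-type libraries, against 36.6, 43.2, 40.3 and 40.8 TPM in the null libraries. Its groups did not overlap, but its log2 fold change of 0.29 (SE 0.10) did not pass the threshold (adjusted p = 0.0779, limma). *Sec24a* (chr11:51692264-51763634, minus strand), with the 7mer-m8 printed above, was at 27.4, 24.1, 21.1 and 23.4 TPM in the wild-type libraries, against 22.0, 22.8, 25.1 and 24.7 TPM in the null libraries. The null values lay inside the wild-type range, with a log2 fold change of -0.02 (SE 0.11, adjusted p = 0.933, limma) and a 95% interval of -0.27 to 0.24, and it was the only coat gene whose mean was not higher in the null group. That difference was above 0 in 6 of the 19 alternative fits, some of which leave it unchanged by design.

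Neither gene of the outer cage was called. *Sec13* (chr6:113728062-113740743, minus strand), which is also a part of the nuclear pore, was at 62.8, 57.3, 63.3 and 62.8 TPM in the wild-type libraries, against 75.6, 69.7, 74.4 and 64.3 TPM in the null libraries. The groups did not overlap, with null replicate 4 just above the highest wild-type library, and the log2 fold change was 0.20 (SE 0.09, adjusted p = 0.160, limma). *Sec31a* (chr5:100361649-100416234, minus strand), its partner in the cage, was at 117, 95.3, 102 and 106 TPM in the wild-type libraries, against 113, 106, 112 and 117 TPM in the null libraries. The groups overlapped, and the log2 fold change was 0.10 (SE 0.09, adjusted p = 0.497, limma) with a 95% interval of -0.11 to 0.30.

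The coat was also compared with each pair of *Mir140*-null libraries on its own against the 4 wild-type libraries, a split chosen after the fibroblast markers had been seen. With replicates 3 and 4, for which the sum of the fibroblast markers but only 4 of the 8 single markers lay inside the wild-type range, 10 of the 10 coat genes had a positive log2 fold change, with a median of 0.31 beside 0.07 for all tested genes, and none passed the threshold (lowest adjusted p 0.118, *Sar1b*), where 2.08% of all tested genes were up-regulated. With replicates 1 and 2, 9 of the 10 were positive with a median of 0.36 beside -0.08 for all tested genes, and *Sec23a*, *Sec23b* and *Sec24b* passed, where 11.0% of all tested genes were up-regulated. The ratio to the wild-type mean in replicates 1 and 2 and in replicates 3 and 4 was close for *Sec24d* (1.37 and 1.45), *Sar1b* (1.49 and 1.43), *Sec24c* (1.22 and 1.24) and *Sar1a* (1.19 and 1.15). It was further apart for *Sec23b* (1.96 and 1.28) and *Sec24b* (1.66 and 1.41). The others were *Sec23a* (1.37 and 1.26), *Sec13* (1.18 and 1.13), *Sec31a* (1.04 and 1.09) and *Sec24a* (0.93 and 1.04). Both ratios share the same wild-type mean, and these pairs were not tested against each other.

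**Figure D3:**
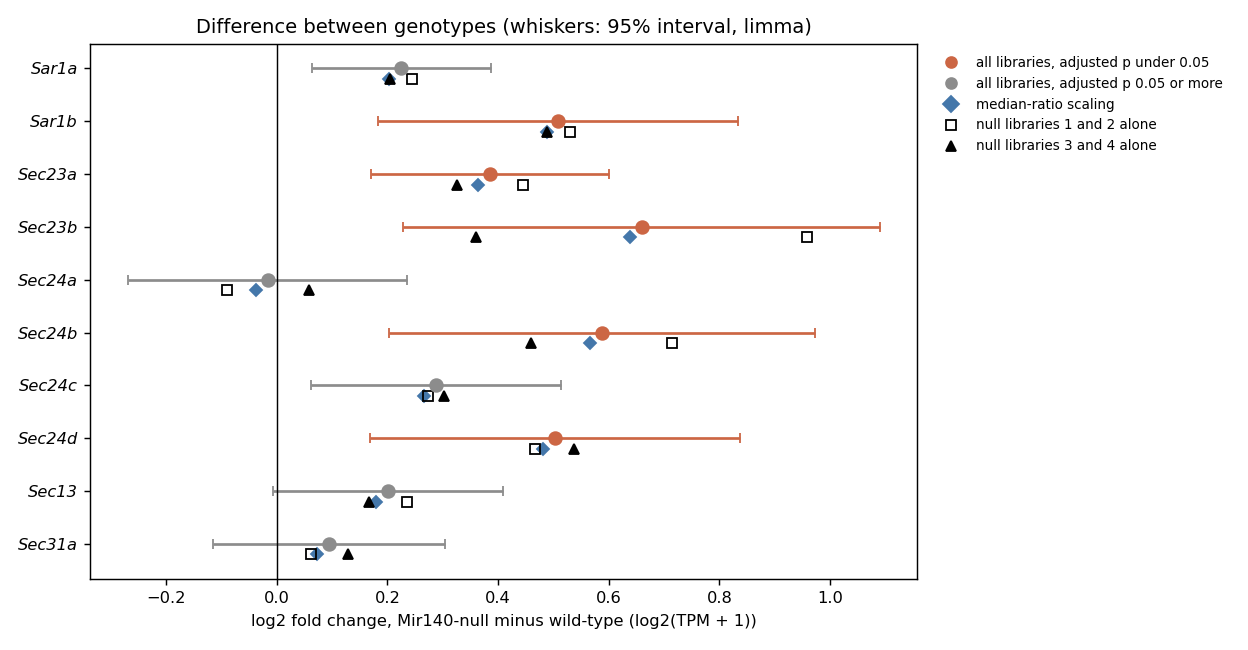
Log2 fold change of each coat gene, *Mir140*-null minus wild-type (horizontal axis), with its 95% interval from limma as whiskers. Circles are the comparison of all 8 libraries (orange where the adjusted p was under 0.05), diamonds the same after median-ratio scaling, and squares and triangles null libraries 1 and 2 or 3 and 4 alone. *Sec23b* differs most between the pairs of null libraries, and *Sec24a* lies near 0.

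Of 72 partner genes in 5 lists drawn from textbook knowledge of the pathway, 71 were tested, of which 23 were up-regulated, 4 down-regulated and 44 not called, where 10.5% of all tested genes were up-regulated and 6.40% down-regulated. Of the genes with a mean of at least 5 TPM, 17.0% were up-regulated, and the counts of the single lists, of 10 to 17 genes each, are to be read beside these shares. Among the 13 tested genes that assemble ER exit sites or regulate the coat, 5 were up-regulated and 0 down-regulated, beside 10.5% and 6.40% of all tested genes, with a median log2 fold change of 0.30. *Preb*, whose product loads Sar1 with GTP, was at 69.5, 84.2, 72.3 and 79.3 TPM in the wild-type libraries, against 484, 401, 174 and 154 TPM in the null libraries. Every null library was above every wild-type library, by 2.15 times on average in replicates 3 and 4 and by 5.80 times in replicates 1 and 2, and *Preb* was the partner with the largest log2 fold change (1.81, SE 0.37, adjusted p = 0.0178, limma). It was also called with replicates 3 and 4 alone (log2 fold change 1.09, adjusted p = 0.0206, limma). *Sec16a*, the scaffold of exit sites, was at 18.9 to 25.1 TPM in wild-type and 29.5 to 41.7 TPM in null libraries (log2 fold change 0.60, SE 0.15, adjusted p = 0.0290, limma). *Tfg*, which joins neighbouring exit sites, changed from 66.1 ± 6.47 to 90.1 ± 5.86 TPM (log2 fold change 0.44, adjusted p = 0.0246, limma).

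The ubiquitin ligase CUL3 with its adaptor KLHL12 monoubiquitinates Sec31 and is known to enlarge COPII carriers. *Cul3* was at 75.4 to 82.7 TPM in the wild-type libraries, against 116 to 132 TPM in the null libraries, and was up-regulated by 0.63 on the log2 scale (SE 0.08, adjusted p = 0.0063, limma). *Klhl12* was at 7.58 to 9.74 TPM in wild-type and 8.11 to 9.01 TPM in null libraries, with a log2 fold change of -0.04 (SE 0.12, adjusted p = 0.836, limma). The calcium-binding co-adaptors of KLHL12, *Pef1* (log2 fold change 0.40, adjusted p = 0.0613) and *Pdcd6* (0.30, adjusted p = 0.0949), were not called by limma. The deubiquitinase *Usp8*, which acts on the same complex, was up-regulated by 0.49 (adjusted p = 0.0181, limma).

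Of 17 cargo receptors and helpers of large cargo, 4 were up-regulated and 0 down-regulated, where 10.5% of all tested genes and 17.0% of those with a mean of at least 5 TPM were up-regulated, and the median log2 fold change was 0.17. *Mia3* (TANGO1) was at 174 to 189 TPM in the wild-type group, and null replicates 1 to 4 had 239, 261, 196 and 181 TPM (log2 fold change 0.26, SE 0.13, adjusted p = 0.196, limma). *Mia2*, which encodes its partner cTAGE5, was at 95.6 to 172 TPM in wild-type and 302, 262, 139 and 174 TPM in null libraries (log2 fold change 0.76, SE 0.28, adjusted p = 0.0995, limma). For both genes the high values were those of null replicates 1 and 2. With these 2 libraries alone both were called (adjusted p = 0.0223 and 0.0228, limma), but that fit keeps only the libraries with the high values. With replicates 3 and 4 alone neither gene was called (log2 fold change 0.05 and 0.33, adjusted p = 0.752 and 0.472, limma). The 4 called genes were *Mcfd2*, the partner of the receptor ERGIC-53 (log2 fold change 1.02), *Tmed5* of the p24 family (0.74), *Ergic2* (0.55) and the lectin *Lman2* (0.55). The gene of ERGIC-53 itself, *Lman1*, had a log2 fold change of 0.09 (adjusted p = 0.628, limma) and the receptor *Surf4* 0.18 (adjusted p = 0.222, limma).

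The genes of the main collagen and of its chaperone were not called over all tested genes. *Col2a1*, the gene of the main cargo of these cells, had a mean of 57785 TPM in the wild-type group and 41414 TPM in the null group, with a log2 fold change of -0.49 (SE 0.16, adjusted p = 0.0695, limma). It was called as lower in the null group when only genes with a mean of at least 5 TPM were tested (adjusted p = 0.0416, limma). That was the only 1 of 9 alternative settings in which *Col2a1* was called. With 1 library left out it was called in 0 of 8 fits (adjusted p up to 0.155, limma). *Serpinh1*, which encodes the collagen chaperone HSP47, was at 950 to 1275 TPM in wild-type and 687 to 951 TPM in null libraries (log2 fold change -0.30, SE 0.14, adjusted p = 0.176, limma). Of the 10 chondrocyte markers, *Acan* was up-regulated (0.88, adjusted p = 0.0107, limma). *Hapln1* (-0.57, adjusted p = 0.0100, limma) and *Col9a1* (-0.43, adjusted p = 0.0467, limma) were down-regulated and 7 were not called. Beside them, 10.5% of all tested genes were up-regulated and 6.40% down-regulated. The summed TPM of these markers (mean 70580 in wild-type) are mostly *Col2a1*.

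Downstream of budding, 5 of 15 genes for tethering and fusion at the cis-Golgi were up-regulated and 0 down-regulated, beside 10.5% and 6.40% of all tested genes. These were the stacking protein gene *Gorasp2* (log2 fold change 0.91), *Trappc4* of the TRAPP tether (0.85), *Uso1*, which encodes the tether p115 (0.72), the SNARE gene *Gosr2* (0.63) and the GTPase gene *Rab1a* (0.33). *Gosr2* was at 23.3 to 31.2 TPM in the wild-type libraries, against 41.9 to 44.6 TPM in the null libraries, almost the same in all 4 null libraries. *Uso1* was at 79.9 and 72.1 TPM in null replicates 1 and 2 and 47.8 and 50.8 TPM in replicates 3 and 4, against 34.9 to 39.4 TPM in wild-type. The COPI coat, which carries material back to the ER, had 3 of 10 genes up-regulated, *Arf1* (0.46), *Arcn1* (0.35) and *Copz1* (0.31), and 1 down-regulated, *Copz2* (-0.65), beside the same shares. *Copz2* was at 64.5 and 68.1 TPM in null replicates 1 and 2 and 97.8 and 83.1 TPM in replicates 3 and 4, against 106 to 147 TPM in wild-type.

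**Figure D4:**
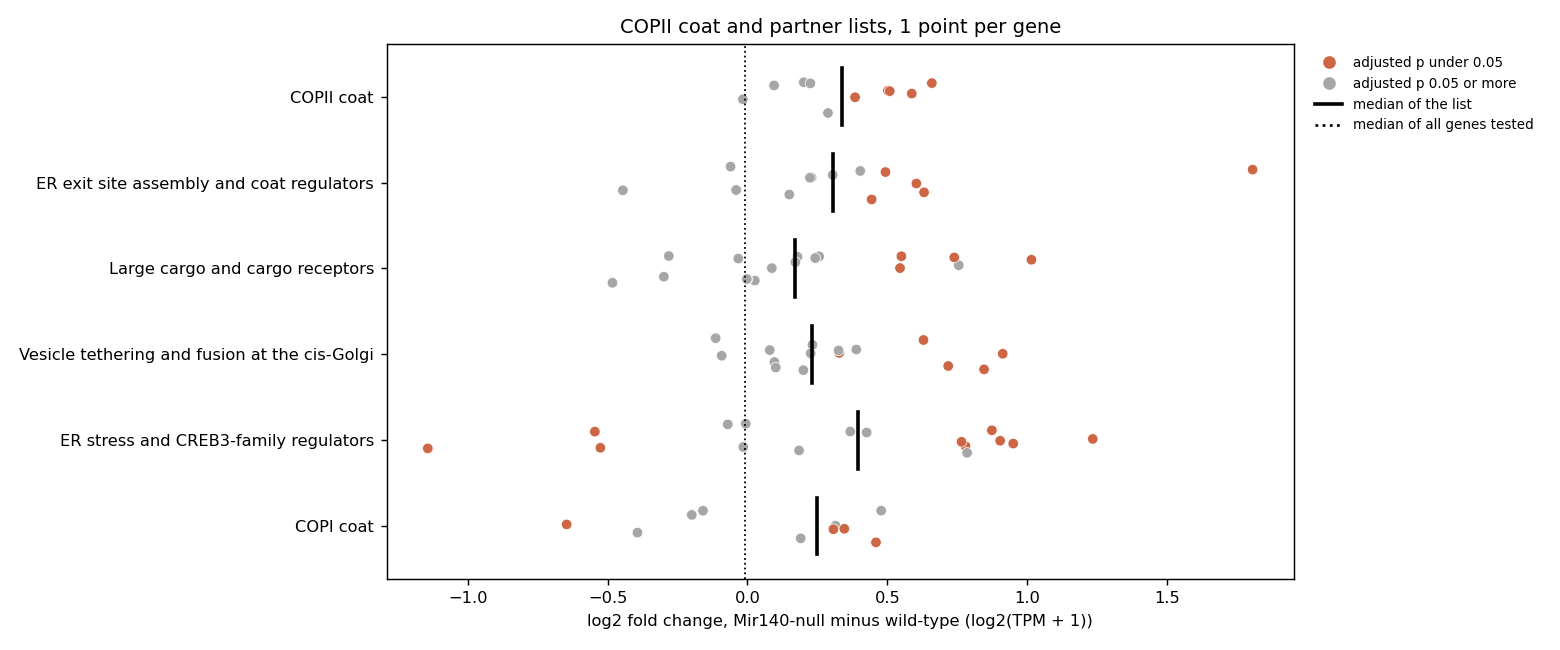
Log2 fold change, *Mir140*-null minus wild-type (horizontal axis), of each gene in the coat list and the 5 partner lists, 1 point per gene; orange points had an adjusted p under 0.05, black bars are list medians (0.34 for the coat) and the dotted line is the median of all tested genes (-0.01). Vertical position within a row is only jitter.

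Transcription factors of the CREB3 family and the ER stress sensors are known to regulate coat genes, and cartilage needs *Creb3l2* for *Sec23a* expression in the mouse. Of 16 such genes, 6 were up-regulated and 3 down-regulated, beside 10.5% and 6.40% of all tested genes. *Creb3l2* was at 36.1, 65.4, 44.2 and 52.9 TPM in the wild-type libraries, against 63.5, 63.2, 57.0 and 68.3 TPM in the null libraries, with overlap (log2 fold change 0.37, SE 0.18, adjusted p = 0.181, limma). *Creb3l1*, the paralog known from bone, was at 8.43, 12.7, 10.3 and 10.3 TPM in wild-type and 27.4, 23.7, 24.4 and 27.2 TPM in null libraries. It was higher by 2.47 times in the mean, with 2.45 and 2.48 times in the pairs of null libraries, and its log2 fold change of 1.23 (SE 0.13) had an adjusted p of 0.0043 (limma). *Creb3* was at 37.0 to 53.1 TPM in wild-type and 74.1 to 93.3 TPM in null libraries (log2 fold change 0.78, adjusted p = 0.0126, limma).

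The sensor genes *Atf6* (log2 fold change 0.87) and *Eif2ak3*, which encodes PERK (0.95), the effector *Xbp1* (0.77) and the cochaperone *Dnajb9* (0.90) were up-regulated with adjusted p of 0.0099, 0.0045, 0.0125 and 0.0084 (limma). *Ern1*, which encodes IRE1, had a log2 fold change of 0.79 and an adjusted p of 0.0607. In the opposite direction, *Hspa5*, the gene of the main ER chaperone BiP, was at 4021 to 4715 TPM in the wild-type libraries, against 2834 to 3010 TPM in the null libraries (log2 fold change -0.55, SE 0.08, adjusted p = 0.0086, limma). *Herpud1*, of ER-associated degradation, fell by 0.53 on the log2 scale (adjusted p = 0.0144, limma), and *Ddit3*, which encodes the stress factor CHOP, fell by 1.14 (adjusted p = 0.0084, limma). The list was therefore split in direction.

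The calls of the partners were not equally firm. Of the 27 called partners, 17 were called in each of the 8 fits with 1 library left out, among them *Preb*, *Cul3*, *Mcfd2*, *Gosr2*, *Arf1*, *Creb3l1* and *Hspa5*. The other 10 were lost in at least 1 of these fits, with adjusted p up to 0.105 (limma). *Copz1* was lost in all 8, and *Arcn1* was called only without *Mir140*-null replicate 3. *Sec16a* and *Copz2* were called in 3 of the 8 fits, in both cases without *Mir140*-null replicate 3 or 4, and also without wild-type replicate 1 for *Sec16a* and 2 for *Copz2*. *Rab1a* (called without wild-type replicate 1 or *Mir140*-null replicate 3), *Uso1* (without *Mir140*-null replicate 3 or 4) and *Ergic2* (without replicate 4 of either genotype) were called in 2 each. *Tfg* was lost without wild-type replicate 3 or 4 or *Mir140*-null replicate 1 or 2, *Usp8* without wild-type replicate 3 or 4 or *Mir140*-null replicate 2, and *Lman2* without wild-type replicate 3. After median-ratio scaling *Sec16a*, *Tfg*, *Rab1a*, *Uso1*, *Arcn1* and *Copz1* were not called, nor were these and *Ergic2* after quantile normalization.

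**Figure D5:**
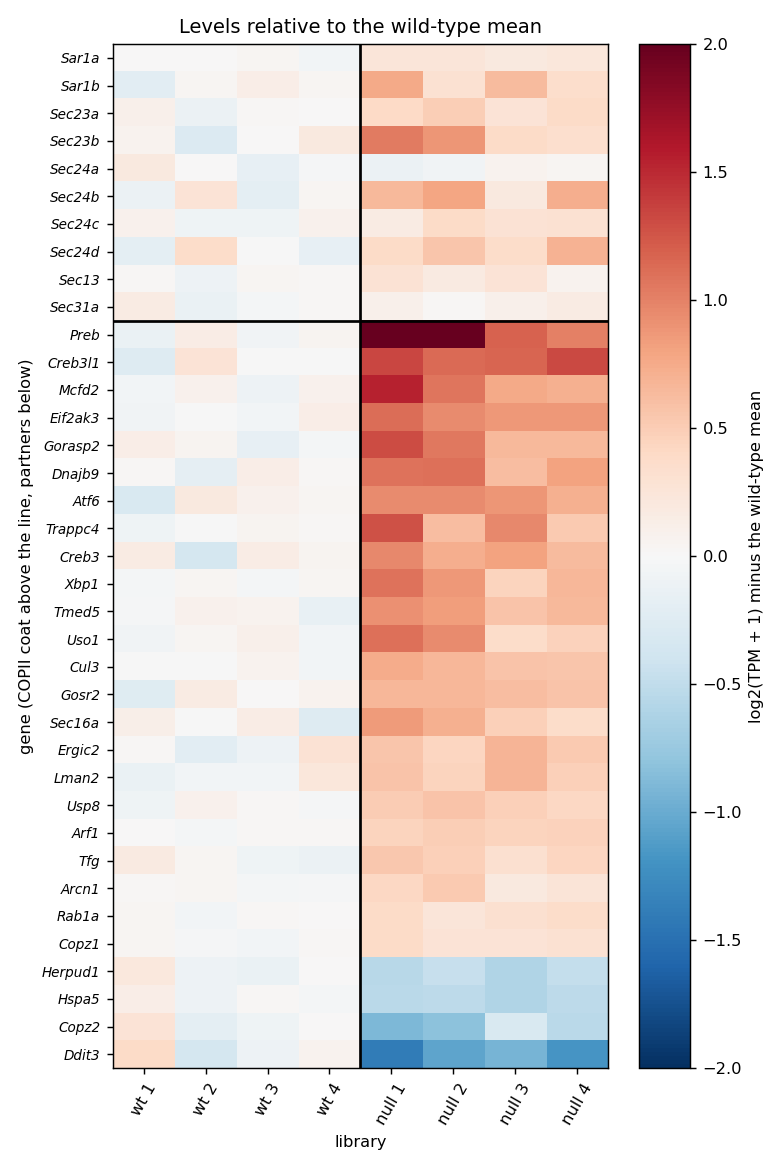
Log2(TPM + 1) of each gene minus its wild-type mean (colour scale, capped at 2 in either direction, which cuts *Preb* in null libraries 1 and 2) in the 8 libraries (columns; wt, wild-type; null, *Mir140*-null). The 10 coat genes are above the line and the 27 called partners below it, ordered by log2 fold change. *Preb*, *Mcfd2*, *Gorasp2* and *Uso1* are highest in null libraries 1 and 2.

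On the study's lists of targets predicted for human genes, *Cul3*, *Lman1*, *Creb3l1* and *Atf6* are listed for miR-140-5p, and *Mia3*, *Sec23ip* and *Tmed7* for miR-140-3p.1. Of these 7 partners *Cul3*, *Creb3l1* and *Atf6* were up-regulated and none was down-regulated, where 10.5% and 6.40% of all tested genes were. Of all 71 tested partners, on these lists or not, 23 were up-regulated and 4 down-regulated, so that the 7 do not stand out from the partners. An 8mer for miR-140-3p.1 was found in the 3'UTRs of several partners, among them *Preb*, *Creb3l2* and *Mia3*. A 7mer-m8 or 8mer for it was in 20.2% of all tested genes. The match of *Mia3* is shown for the role of this gene in collagen export, in capitals (GENCODE M21, GRCm38, minus strand).
Mia3, 8mer for miR-140-3p.1, chr1:183327009-183327035: atgaacatttCCTGTGGAaatgcttta

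Across the 8 libraries, *Sec23a* varied most like *Sar1a* among the coat genes (Pearson's r of log2 levels 0.94), and *Sec24d* most like *Sec24b* (0.88). *Sec24a* reached at most 0.48 with the other 9, for *Sec31a*. Over 13117 protein-coding tested genes, those with levels most like *Sec23a* were *Ss18l2*, *Akap10*, *Cdyl*, *Zzz3* and *Ubap2l* (r 0.97 to 0.99), those most like *Sec24d* were *Fam160a2*, *Csnk1g1*, *Ywhag*, *Serinc2* and *Dnmbp* (0.96 to 0.98), and those most like *Sar1a* were *Selenoi*, *Ebag9*, *Osbp*, *Sec62* and *Pum2* (0.99 for each). The points of these correlations share genotype and library, with n = 8, and they are given as a description only.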

How the data were processed

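RNA-seq of 8 libraries of costal chondrocytes, 4 wild-type and 4 *Mir140*-null, was re-analysed. The authors deposited TPM per Ensembl gene, made by Salmon from single-end 75-base reads of stranded poly(A) libraries against mm10. Per the labels, FastQC 0.11.7 and DESeq2 were also used. The Salmon version and the step from transcripts to genes are not given in the sources used here. The deposited TPM hold neither a scaling between libraries nor the RUVSeq factors of the paper, whose variant and number are not given in the sources used here. Repeated lines of an identifier (540 per library) were counted once. Depth is unknown from TPM, and no counting error was computed. The paralogs Sec23, Sec24 and Sar1 share similar sequence, and how Salmon split reads between them was not tested.

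Symbols and 3'UTRs came from GENCODE M21, promoters and the miR-140 hairpin from RefSeq. The test was that of limma 3.58.1 under R 4.3.3 on genes reaching 0.5 TPM in 4 or more libraries (log2(TPM + 1), mean-variance trend, genotype as the only term). On simulated data of the same size, 113 of 200 genes changed by 2-fold among 17177 were recovered, with 4 false calls. There the noise was drawn independently for each gene and library, and the changed genes were taken above a cut on level. Spread shared by many genes, such as that between the pairs of null libraries, was not simulated. These counts therefore check the code and do not give the recovery or the false calls of the real comparison. Other steps used Python 3.11.15, pandas 2.3.3 and matplotlib 3.10.9. The coat genes and the partner and marker lists were chosen with earlier results of these data known. The genes named were the 10 coat genes, every called partner, 12 textbook partners, *Col2a1*, and the 5 genes most like *Sec23a*, *Sec24d* and *Sar1a*. *Ern1*, *Pef1*, *Pdcd6*, *Sec23ip* and *Tmed7* lie outside this rule and were named after their values were seen, as were the markers *Matn1*, *Acan*, *Hapln1*, *Col9a1* and those for fibroblasts.

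Alternatives were a pseudocount of 0.1, no filter, a mean of at least 5 TPM, median-ratio scaling, quantile normalization, leaving out mitochondrially encoded genes, replicate number as a block, 1 factor of unwanted variation from residuals, limma's sample quality weights, and each library left out. The same replicate number did not pair libraries of the 2 genotypes (correlations of their deviations from the group means -0.01 to 0.07).

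Marker sums in the 4 wild-type and 4 null libraries were 59283 to 75120 and 44474 to 62431 TPM for chondrocytes (10 genes), 10.3 to 18.1 and 3.10 to 14.7 for osteoblasts (6), 64.1 to 98.9 and 34.6 to 58.3 for skeletal muscle (7), 23.9 to 42.0 and 18.3 to 32.4 for myeloid cells (7), 5.56 to 20.9 and 3.41 to 27.1 for endothelium (5), and 646 to 1854 and 256 to 1725 for erythroid cells (6). No marker was under 0.1 TPM in all libraries.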

Additional observations from a re-analysis of the deposited data

Results flagged for a closer look

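Among 114 groups of 4 values (45 genes and 12 coat sums or shares in each genotype), 7 held 1 library far from the other 3, where chance flags about 1 in 20 groups. In wild-type replicate 2, *Sec13* was at 57.3 TPM against 62.8 to 63.3 TPM in the others, the summed Sec24 genes at 232 TPM against 184 to 186 TPM, and the ratio of Sec24 to Sec23 sums at 3.55 against 2.32 to 2.47. Wild-type replicate 2 also had the highest wild-type *Sec24d* and *Sec24b*. Without that library *Sec24d* had an adjusted p of 0.0254 (limma), but leaving out the highest wild-type value widens the difference by design. It was the only 1 of the 8 fits with 1 library left out in which *Sec24d* was called, and the adjusted p reached 0.121 (limma) among the 8. In *Mir140*-null replicate 4, the ratio of *Sec13* to *Sec31a* was 0.549 against 0.654 to 0.671, and *Sec24d* took 66.7% of the Sec24 genes against 63.7% to 64.0%. *Col2a1* was at 47893 TPM in wild-type replicate 3 against 60174 to 61630 TPM in the other wild-type libraries, and *Hspa5* at 2834 TPM in *Mir140*-null replicate 3 against 2980 to 3010 TPM.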

How the results depend on the processing

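Of the 10 coat genes, 8 to 10 had a positive log2 fold change in each of the 17 other settings tried. No filter, a mean of at least 5 TPM, the replicate block and 1 factor leave these fold changes as they were. Such settings could therefore not test the direction. The number called by limma (5) moved. It was 1 with no filter, 0 after median-ratio scaling, quantile normalization or the replicate block, and 0 to 3 with 1 library left out: 0 without wild-type replicate 3 or 4 or without *Mir140*-null replicate 1 or 2, 1 without wild-type replicate 1 or *Mir140*-null replicate 4, 2 without wild-type replicate 2 and 3 without *Mir140*-null replicate 3. It was 7 without mitochondrially encoded genes, where the ratio of summed coat TPM was 1.28 instead of 1.23. The number was 6 with 1 factor of unwanted variation, which was taken from residuals and removes only spread within the genotypes. With *Mir140*-null replicates 3 and 4 alone it was 0, and with replicates 1 and 2 alone 3. The partner calls (23 up, 4 down) became 13 and 1 with the replicate block, 14 to 24 up when 1 library was left out, 7 down with 1 factor, 9 and 1 with replicates 3 and 4 alone, and 7 down with replicates 1 and 2 alone. Over all genes, the 1797 up-regulated and 1100 down-regulated became 977 and 539 with no filter, 605 down at a mean of at least 5 TPM, 671 and 454 with the replicate block, 2016 down with 1 factor, 779 to 1553 and 419 to 1214 with 1 library left out, 357 and 210 with replicates 3 and 4 alone, and 2212 down with replicates 1 and 2 alone. Up-regulated genes were 62.0% of all calls, and 50.9% after median-ratio scaling (1368 and 1320).

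The sign turned for genes near 0. *Sec24a* was at a log2 fold change of 0.0393 without mitochondrially encoded genes, 0.0483 with quality weights, -0.0732 to 0.0465 with 1 library left out, and 0.0574 with replicates 3 and 4 alone. *Sec31a* was at -0.0667 and *Lman1* at -0.0719 after quantile normalization, and *Klhl12* at 0.0113 without mitochondrially encoded genes and -0.100 to 0.0077 with 1 library left out. No other coat or named partner gene changed sign. *Col2a1* was level between the genotypes after quantile normalization, which gives the same value to genes of the same rank in each library. That setting could therefore not show a difference for *Col2a1*. The causes of the sign changes were not tested. The block result rests on numbers that did not pair the libraries.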
